A study of Homo sapiens with 2 samples.

Results

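A total of 209 of the 504 ZNF728 peaks lay in intergenic sequence, which was 41.5% of the list (exact 95% interval 37.1 to 45.9%). A peak was counted as intergenic when its centre fell outside every gene body and more than 1000 bp from every transcript start, for all gene types of GENCODE 44 lifted to GRCh37 (the same build as hg19), on chromosomes 1 to 22 and X. Of positions spaced evenly at 1 kb along the sequenced genome, 36.7% met the same rule (1039607 of 2835675). Where a position value below is given with a background, the background is these intergenic positions. The rule used position only, and no score entered it.

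The peaks came from 1 chromatin immunoprecipitation (ChIP-seq) library of HEK293T, a transformed human embryonic kidney cell line. The cells carried a lentiviral pTRE construct for ZNF728 with a triple HA tag, were selected with puromycin and were given doxycycline to switch the construct on. An anti-HA antibody pulled down the tagged protein (replicate 1), and 1 library of total input from the line served as the control. The protein was therefore overexpressed and tagged in a transformed cell line, and neither uninduced cells nor the endogenous protein were measured here. With 1 library of each kind no difference could be tested between experiments, so all comparisons describe this peak list, and every interval covers counting error only.

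ZNF728 belongs to the KRAB zinc finger proteins (KZFPs), a large family in which an array of zinc fingers reads DNA and the KRAB domain recruits the corepressor KAP1 (TRIM28), which in turn brings in enzymes that lay down repressive chromatin. Many KZFPs recognise a particular family of transposable elements. ERV9 is a family of endogenous retroviruses, remnants of ancient infections whose internal sequence is flanked by LTR12 long terminal repeats, and its copies are scattered within and between genes.

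The intergenic peaks fell into 3 sequence classes. Copies of an ERV9 segment, found by alignment to an 847 bp stretch amplified by the ERV9 primers of the study, held 132 of the 209 peaks (63.2%, interval 56.2 to 69.7%). The copy under the UBP1 peak, counted among the 132, is 100% identical to the segment over all 847 bp. The class thus includes a peak on the sequence that defined it. A further 23 (11%) had an alignment to the segment over their centre that was too short or too diverged to count as a copy, and are called related. The other 54 (25.8%) had no such alignment over their centre, and 52 of them had none anywhere in the peak. The peaks on copies were centred on a narrow stretch of the element, with a median at base 370 of the segment and a range from 331 to 426. The 20 bases around this median were the same in most of them, and their majority letters, called the core here, were:
ERV9 core, 20 bases: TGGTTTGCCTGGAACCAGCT

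Positions 6, 13 and 17 of the core, counted from its 5′ end, carried the majority base in all 132 aligned peaks. Position 11 varied most and kept its G in 82.6% of them. The core was read from these same peaks, so its agreement with them is a description. The central 100 bases of the 3 highest-scoring peaks on ERV9 copies are shown first, on the strand of the element and with the core in capitals. All 3 have the core without a mismatch.
FCGR2A peak, chr1:161443195-161443294, plus strand: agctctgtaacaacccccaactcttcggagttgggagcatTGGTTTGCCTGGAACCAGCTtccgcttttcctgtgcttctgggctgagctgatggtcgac
SELENOF peak, chr1:87274628-87274727, minus strand: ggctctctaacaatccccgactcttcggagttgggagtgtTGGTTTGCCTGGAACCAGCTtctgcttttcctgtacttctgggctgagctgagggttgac
EIF2S2 peak, chr20:32740962-32741061, plus strand: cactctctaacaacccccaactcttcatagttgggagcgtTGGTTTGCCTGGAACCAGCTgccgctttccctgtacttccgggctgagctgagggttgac

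The 3 lowest-scoring peaks on ERV9 copies are shown for contrast, in the same orientation. The CXADR peak shared its score of 190 with the peaks near KCNH7 (2 mismatches in its alignment) and STIM2, of which the latter has an intact core. Against the core the CXADR peak carries G2C and G3A, the CTNNA3 peak G18A and the IGFBP7 peak G11A (core base, position, base of the peak).
CXADR peak, chr21:18669857-18669956, plus strand: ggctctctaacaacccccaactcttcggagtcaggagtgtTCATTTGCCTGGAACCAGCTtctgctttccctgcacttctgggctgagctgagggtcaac
CTNNA3 peak, chr10:66543820-66543919, minus strand: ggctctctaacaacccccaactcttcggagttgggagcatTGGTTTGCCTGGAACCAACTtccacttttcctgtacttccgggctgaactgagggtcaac
IGFBP7 peak, chr4:59171259-59171358, plus strand: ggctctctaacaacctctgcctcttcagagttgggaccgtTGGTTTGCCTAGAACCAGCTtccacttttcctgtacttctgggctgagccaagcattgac

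The 2 highest-scoring related peaks carry T5C and otherwise the whole core.
SPINK8 peak, chr3:48376950-48377049, minus strand: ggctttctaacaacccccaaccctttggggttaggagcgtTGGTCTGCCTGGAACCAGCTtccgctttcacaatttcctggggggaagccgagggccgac
RILPL1 peak, chr12:124033890-124033989, plus strand: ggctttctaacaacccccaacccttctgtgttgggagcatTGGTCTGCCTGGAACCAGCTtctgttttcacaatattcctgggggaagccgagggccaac

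The 2 highest-scoring peaks with no alignment to ERV9 are shown with their best match to the core in capitals, which has 5 mismatches in the CDC42BPA peak and 7 in the NR2F1 peak. In both, the mismatches lie in the first 12 positions and the last 8 letters are those of the core.
CDC42BPA peak, chr1:227559024-227559123, plus strand: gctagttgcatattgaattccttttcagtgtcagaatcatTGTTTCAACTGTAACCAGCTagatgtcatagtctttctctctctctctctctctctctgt
NR2F1 peak, chr5:92340771-92340870, plus strand: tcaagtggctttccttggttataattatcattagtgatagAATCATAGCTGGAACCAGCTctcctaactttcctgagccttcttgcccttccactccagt

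Each peak had a score in the deposited list. The statistic behind it was not stated, so it serves here to order the peaks and nothing more. The 209 intergenic peaks had a median score of 953 (interval 715 to 1084, quartiles 288 and 1803, range 83 to 7646). The 295 peaks in genes and at promoters had a median of 381 (interval 303 to 521), with quartiles of 178 and 1224. The intergenic peaks thus took a larger share of the upper part of the ranking, with 129 of 209 (61.7%) at or above the median of the list (568) against 123 of 295 (41.7%). They were also wider, with a median of 370 bp against 317 bp. Width carried nearly the same ranking as the score (Spearman's rho 0.95 over 209 peaks, given without a test because peaks of a single library share depth and peak calling).

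This difference went with the sequence classes. Intergenic peaks on ERV9 copies had a median score of 1216 (quartiles 746 and 2100), related peaks 1520 (716 and 2283) and the others 166 (125 and 299). In genes and at promoters the same classes had medians of 1623, 1368 and 207, so within the ERV9 copies and the other peaks the intergenic medians were the lower ones. What differed was the mix: ERV9 copies made up 63.2% of the intergenic peaks but 29.8% of the rest, and peaks without a central ERV9 alignment 25.8% against 59.3%. Only 3 of the 54 intergenic peaks without a central ERV9 alignment reached the median of the list, compared with 106 of 132 on copies and 20 of 23 related peaks. Read in the other direction, 60.0% of peaks on ERV9 copies were intergenic (53.2 to 66.5%), close to the 59.6% of the copies themselves, and so were 23.6% of peaks without a central ERV9 alignment (18.2 to 29.6%), below the 36.7% of genome positions.

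**Figure D1:**
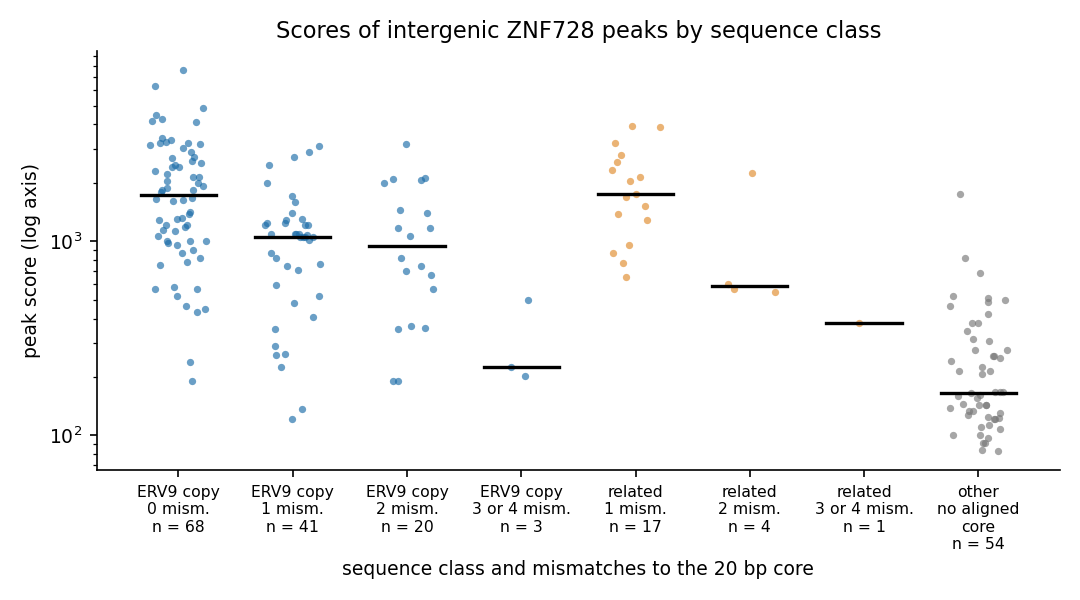
Score of each intergenic ZNF728 peak (log axis) by sequence class and by mismatches to the 20 bp core in the alignment. Black bars are medians, and the related peak without an aligned core is left out. Medians were 1740 for ERV9 copies without a mismatch, 1058 with 1 and 946 with 2, and peaks without a central ERV9 alignment had a median of 166 and an upper quartile of 299.

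Among peaks on ERV9 copies the median score was lower with more mismatches to the core, up to 3. The 68 peaks with 0 mismatches had a median of 1740 (quartiles 1002 and 2702), the 41 with 1 mismatch 1058 (594 and 1236) and the 20 with 2 mismatches 946 (516 and 1587). The 3 peaks with more mismatches scored 202 (ERGIC2) and 226 (PPFIA2) with 3, and 501 (SLITRK5) with 4. Mismatches of a peak were counted in its alignment to the segment, which allows gaps. A direct comparison without gaps can find a closer match in the peak. It gave 0 in place of 2 for the OPRK1 peak (score 2119), 2 in place of 3 for PPFIA2 and 1 in place of 2 for KCNH7. The ranges of these groups overlapped widely, since peaks with an intact core scored from 190 to 7646. Across the 132 peaks Spearman's rho between score and core mismatches was -0.39, against -0.19 for mismatches over 100 bases around the same centre (131 peaks) and 0.06 for the identity of the whole copy to the segment, whose median was 87.2%. The 40 peaks in genes and at promoters with an intact ERV9 core had a median of 2146, and their 38 peaks with 1 mismatch 1076.

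To set the bound sites against unbound ones, the genome was scanned for the core without gaps and with up to 4 mismatches on either strand. Intergenic sequence held 73 sites without a mismatch, all of them on ERV9 copies, and 69 lay inside a peak (94.5%, interval 86.6 to 98.5%). With 1 mismatch 59 of 67 sites had a peak (88.1%), with 2 mismatches 24 of 41 (58.5%), with 3 mismatches 3 of 101 (2.97%) and with 4 mismatches 2 of 923 (0.217%). The fall at 3 mismatches came with a change of surroundings, as 89 of those 101 sites and 911 of the 923 sites had no ERV9 alignment. The share also fell inside ERV9 alignments, where few sites had 3 or 4 mismatches. On copies 19 of 25 sites had a peak at 2 mismatches, 1 of 3 at 3 and 1 of 2 at 4. In the other ERV9 alignments these were 5 of 10, 1 of 9 and 1 of 10. Outside ERV9 alignments 0 of the 6 intergenic sites with 2 mismatches had a peak and 1 of the 89 with 3 mismatches did. This 1 site lay directly beside the alignment of the related DIAPH3 peak (score 122), so it was not away from ERV9. Sites in genes and at promoters gave a like series, 42 of 43, 56 of 65, 15 of 36, 7 of 157 and 2 of 1661. Part of the high share at 0 mismatches is built in, because the core was taken from bound copies.

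**Figure D2:**
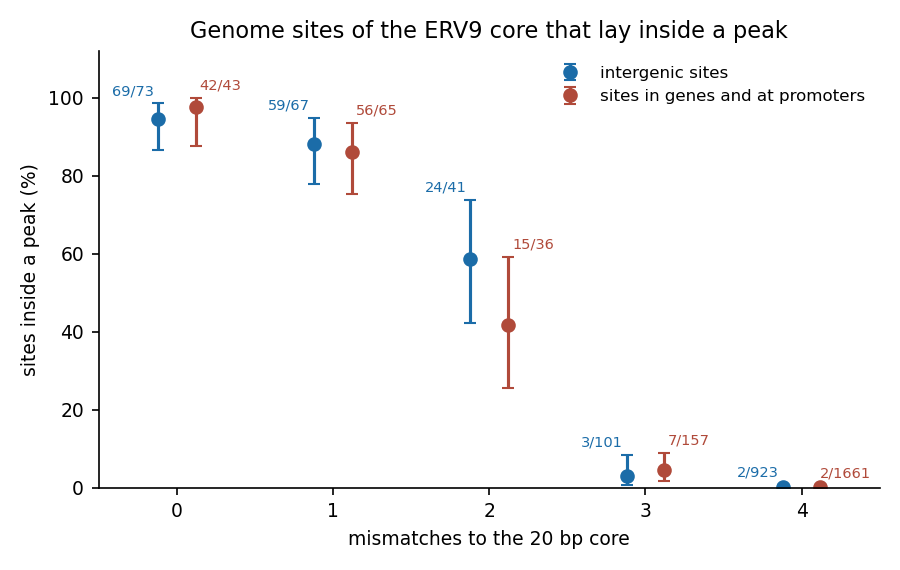
Share of genome sites of the 20 bp core that lay inside a peak (vertical axis, percent) by number of mismatches, for intergenic sites and for sites in genes and at promoters; bars are exact 95% intervals and labels give sites with a peak over all sites. The share of intergenic sites went from 94.5% at 0 mismatches to 58.5% at 2 and 2.97% at 3.

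Single changes were not spread evenly over the core. The change T5C accounted for 18 of the 67 intergenic sites with 1 mismatch, none of them on an ERV9 copy, and 16 had a peak with a median score of 1723 (range 654 to 3939). That median is near the 1740 of intact cores on ERV9 copies. G11A was the most common single change on the copies, with 14 sites of which 13 had a peak, at a median score of 866 (range 122 to 2720). The only site with a change at position 17, A17G, had no peak, and the only one at position 18, G18A, had the CTNNA3 peak of score 137. Positions 1, 6, 10, 13 and 20 had no intergenic site with that change alone. Most of these counts are too small to rank positions.

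Of the 152 intergenic ERV9 copies, 132 had a peak (86.8%, interval 80.4 to 91.8%), compared with 88 of 103 copies in genes and at promoters (85.4%, 77.1 to 91.6%). The 20 intergenic copies without a peak had a median identity to the segment of 87.0% and those with a peak 87.2%. They lay farther from coding genes, at a median of 488 kb against 99.6 kb, and 12 of the 20 (60.0%) were in gene deserts, gaps of at least 500 kb between neighbouring coding genes, against 51.5% of those with a peak. An intact core without a peak was found at 4 intergenic places. On chromosome 3 they were chr3:96017244-96017263 and chr3:95669616-95669635, 516 and 864 kb from EPHA6, an ephrin receptor gene. The remaining ones were on chromosome 8, 148 kb from the potassium channel gene KCNB2, and at chr13:62723807-62723826, 722 kb from the nearest coding gene. Reads of low mapping quality were removed before peak calling, and whether this took part in the absence of these peaks was not tested.

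The nearest coding gene of an intergenic peak lay at a median distance of 56.4 kb (interval 37.9 to 83.9 kb, quartiles 11.7 and 257 kb). Intergenic positions at large had a median of 90.5 kb (22.1 and 316 kb). The classes differed in this. Peaks on ERV9 copies had a median of 99.7 kb (interval 68.7 to 167 kb), which spans the background value, whereas related peaks had 15.7 kb (11.1 to 48.7 kb) and the others 22.8 kb (8.91 to 52.9 kb). Within 10 kb of a coding gene lay 21 of the 54 peaks without a central ERV9 alignment (38.9%), 6 of 23 related peaks (26.1%) and 15 of 132 on ERV9 copies (11.4%), compared with 14.2% of intergenic positions. A peak lay upstream of its nearest coding gene in 114 of 209 cases (54.5%, 47.5 to 61.4%), and 51.8% of the positions did.

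**Figure D3:**
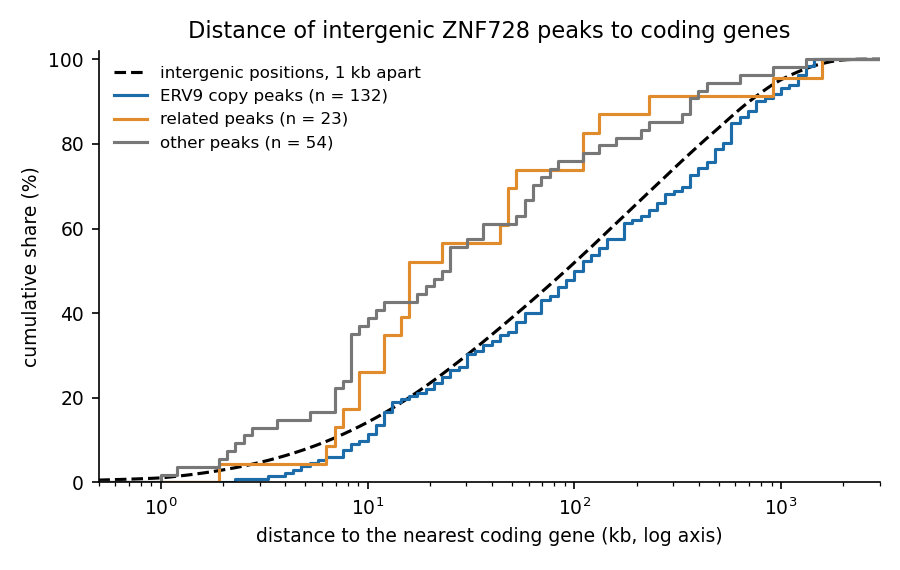
Cumulative share (percent) of intergenic peaks against distance to the nearest coding gene (kb, log axis), by sequence class, with intergenic positions 1 kb apart as the dashed line. The curve of the ERV9 copies follows the background, with medians of 99.7 and 90.5 kb, and the curves of the related (15.7 kb) and other peaks (22.8 kb) lie to its left.

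Gene deserts held 87 of the 209 peaks (41.6%, interval 34.9 to 48.6%), against 50.9% of intergenic positions. On ERV9 copies the share was 51.5% (68 of 132), in related peaks 21.7% (5 of 23) and in the others 25.9% (14 of 54). In gaps of at least 1 Mb lay 28.2% of the peaks and 35.4% of the positions. At the other end, 40 peaks (19.1%, 14 to 25.1%) had 10 or more coding genes within 500 kb on each side, as did 18.3% of positions. The most crowded were the ERV9 peak at PCP4L1 and the ZNF75A peak, each with 41 coding genes. No coding gene lay within 500 kb of 33 peaks (15.8%), against 16.2% of the positions. Deserts were defined by gap length alone, for peaks and positions alike. The length includes runs of N, which made up 3000 kb of the 3995 kb gap of the EMB peak. A desert peak can also lie near a gene at the edge, as at IRF2BP2 (1.15 kb) and CXCL12 (6.52 kb).

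Among peaks on ERV9 copies the score also went with distance. The 35 peaks up to 25 kb from a coding gene had a median score of 1586 and the 31 at 25 to 100 kb 2094, whereas the 38 at 100 to 500 kb had 1084 and the 28 beyond 500 kb 889. The share with an intact core was similar in the 4 bins, at 48.6, 48.4, 55.3 and 53.6%. Among intact cores alone the medians were 2298, 2481, 1288 and 1145, and among cores with a mismatch 1254, 1190, 762 and 523. The share of intergenic copies that had a peak was 35 of 37 (94.6%, 81.8 to 99.3%) in the nearest bin and 28 of 38 (73.7%, 56.9 to 86.6%) in the farthest. Over the 132 peaks Spearman's rho between score and distance was -0.31, and over all 209 intergenic peaks, in which the low-scoring peaks without a central ERV9 alignment lie near genes, it was -0.02. Chromatin state and copy number in HEK293T were not measured here, and their part in this relation was not tested.

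**Figure D4:**
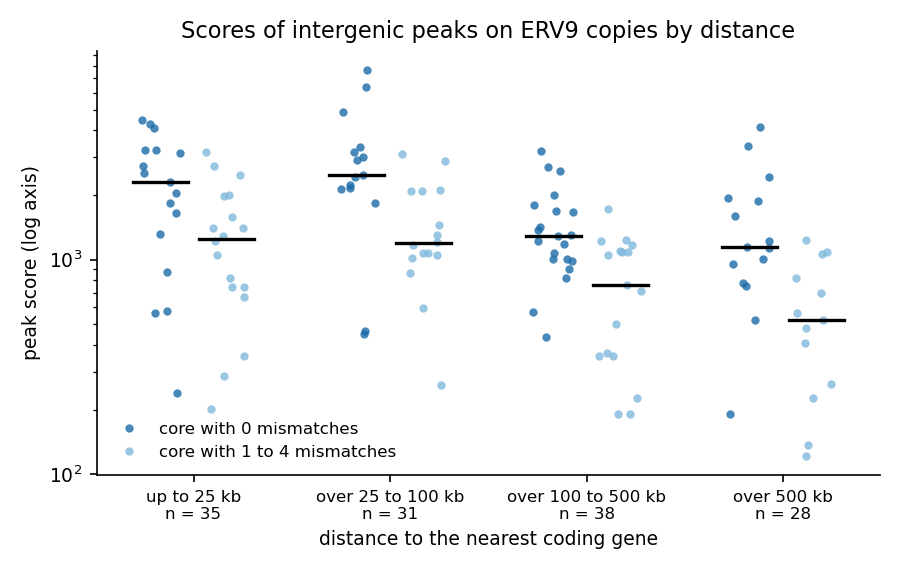
Score (log axis) of the 132 intergenic peaks on ERV9 copies by distance to the nearest coding gene, split into cores with 0 mismatches and cores with 1 to 4; black bars are medians. With an intact core the median was 2298 up to 25 kb and 1145 beyond 500 kb, and the ranges overlap in every bin.

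The 12 highest-scoring intergenic peaks were 10 on ERV9 copies, all with an intact core, and 2 related peaks. The highest, with a score of 7646, lay at chr1:161442984-161443559, 31.9 kb upstream of FCGR2A, which encodes a low-affinity receptor for the Fc part of IgG on myeloid cells. It was followed by a peak of 6346 located 53.5 kb downstream of SELENOF, a selenoprotein gene of the endoplasmic reticulum, and by 4853 at 41.0 kb upstream of EIF2S2, a subunit gene of translation initiation factor eIF2. The widest intergenic peak, 607 bp with a score of 4468, lay at chr2:218985712-218986318, only 4.00 kb upstream of CXCR2, a chemokine receptor gene of neutrophils. The SMIM19 peak on chromosome 8 scored 4289.

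The other high-scoring peaks ranged from gene-rich to gene-poor surroundings. The ID4 peak scored 4162 at 565 kb from this inhibitor of basic helix-loop-helix factors, in a gap of 1369 kb, and the NMBR peak (neuromedin B receptor) scored 3395 at 881 kb, in a gap of 2684 kb. Near genes were PCP4L1 (4098 at 7.89 kb) and the related peaks at SPINK8 (3939 at 1.85 kb), a Kazal-type protease inhibitor gene, and RILPL1 (3876 at 15.7 kb). The CD109 peak scored 3334 at 76.3 kb and the PNLIPRP3 peak 3253 at 23.7 kb. The lowest scores were 83 near EPHB3, 84 near WEE1, the gene of a kinase that restrains entry into mitosis, and 91 near the odorant receptor gene OR1A2, all without an ERV9 alignment. The peak of the PRMT6 desert also scored 91.

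Of the 10 peaks nearest to a coding gene 7 had no ERV9 alignment, and their scores were low. They lay 0.917 kb from MOB3A (score 123), 1.15 kb from the corepressor gene IRF2BP2 (257), 1.76 kb from BHLHE40 (139), 1.94 kb from SOBP (167), 2.17 kb from ZNF75A (489), 2.44 kb from FOXD3 (159) and 2.66 kb from HOXC11 (167). The remaining 3 had higher scores, with the related peak at SPINK8 and ERV9 copies 2.24 kb from PASD1 (1288) and 3.21 kb from FAXC (3227). The 10 peaks farthest from a coding gene held 8 ERV9 copies, 1 related peak and 1 without an ERV9 alignment. The farthest was the related peak at chr11:38623954-38624307, 1512 kb from LRRC4C, a synaptic adhesion gene, with a score of 654. Next came an ERV9 peak of score 1145 at 1351 kb from AMY1C, the salivary amylase gene, and the rest lay 1128 to 1348 kb away, with scores from 91 (PRMT6) to 2423 (EPHA6).

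Most gaps with an intergenic peak held only 1. The 209 peaks stood in 197 gaps between coding genes, out of 15697, and of the 197 gaps 187 held 1 peak, 8 held 2 and 2 held 3. Spacing was set beside no background, so whether these peaks lay closer together or farther apart than an even spread was not tested. The gap of 2197 kb between ADGRL3, an adhesion G protein-coupled receptor gene, and TECRL held a related peak of score 953 and ERV9 peaks of 1219 and 780 within 214 kb. The gap of 3298 kb between AMY1C and PRMT6 held an ERV9 peak of 1145 and peaks of 100 and 91 without an ERV9 alignment. The median distance from an intergenic peak to the next was 3736 kb and the smallest 81.7 kb. Another intergenic peak lay within 1 Mb of 45 peaks (21.5%, 16.2 to 27.7%). The only intergenic peak with any peak of the list within 20 kb was the ERV9 peak near NOS2 (score 1213), 9.76 kb from a peak of 122 in a gene body or promoter near LGALS9.

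Some peaks shared nearly all of their sequence. On chromosome 9, peaks on ERV9 copies near CNTNAP3, AL353791.1, SPATA31A7 and FAM27E3 were 99.2 to 99.7% identical over 357 to 419 bp, with scores of 824, 1658, 2006 and 2695. These 4 positions lie in duplicated sequence, so reads may not be assignable between them, and the scores are not 4 independent observations. Each of the 4 peaks has an intact core. They are counted singly among the intact cores, the bound sites and copies, and the peaks at 100 to 500 kb, where the same limit holds. Peaks near LSM5 (144) and MYOCD (122), neither with an ERV9 alignment, were 97.7% identical over 220 bp. At 80% identity over 100 bp, 157 intergenic peaks formed 1 group that held all ERV9 and related peaks and 2 others. Further groups had 8, 5 and 2 peaks, and 37 peaks resembled no other.

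The 54 peaks without a central ERV9 alignment were a mixed set. In 35 the sequence occurred at most 5 times in the genome (80% identity over 100 bp), with a median score of 167, and 17 of these lay within 10 kb of a coding gene. At least 5 CpG per 100 bp, a density typical of CpG islands, was seen in 8 of the 35. Among them were peaks close to IRF2BP2, FOXD3 and BHLHE40, and peaks farther from MAP3K7 (24.4 kb), CXADR (58.3 kb) and SCAND3 (132 kb). The upper quartile of CpG per 100 bp was 1.83 in all 54 and 6.18 in the peaks of this class in genes and at promoters. The 19 peaks in repeated sequence comprised 9 with 10528 to 13779 genome matches and a median score of 131, 6 with 83934 matches or more and a median of 125, and 4 with fewer. The highest scores of the class, 1757 near CDC42BPA, 820 near NR2F1 and 686 near ZBTB7C, were all in sequence found once. The ANGPT1 peak on chromosome 8 (499) and the ZDHHC17 peak (306) had an ERV9 alignment of 158 and 147 bp beside their centre, at 82.9 and 82.1% identity, and a core with 2 and 4 mismatches. In the 52 peaks with no ERV9 alignment the best match differed by 5 to 10 of the 20 bases.

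The 209 peaks had 203 different nearest coding genes, and 6 genes were nearest to 2 peaks each. Gene families were taken by the start of the gene symbol, so members with other names are missed (the homeobox genes TLX3 and NOBOX and the zinc finger genes ZBTB7C and ZXDA, each nearest to a peak, are not counted). Genes named ZNF, ZFP, ZSCAN or ZKSCAN, the naming group of ZNF728, were nearest to 6 peaks (2.87%, 1.06 to 6.14%), against 1.86% of intergenic positions. These were ZNF99 (related, score 777), ZNF75A (489), ZKSCAN7 (ERV9, 288), ZNF804A (ERV9, 263), ZNF397 (241) and ZNF521 (155), all below the intergenic median. Of the immune lists, FCGR2A was the only gene of the Fc receptor and immunoglobulin-like list, which was nearest to 0.081% of intergenic positions. CXCL12 (464, at 6.52 kb) was the only chemokine (0.15% of positions) and HLA-DRB5 (238, at 21.6 kb, on an ERV9 copy with an intact core) the only HLA gene (0.0666%). With 1 peak in each of these lists the exact intervals run from 0.0121 to 2.64%. The list of homeobox, forkhead and related genes had FOXD3 and HOXC11, 0.957% of the peaks against 1.64% of positions, and the olfactory receptor list OR1A2, 0.478% against 0.96%. Keratin, serpin, interferon, histone, defensin and taste receptor genes were nearest to 0 of the 209 peaks, which allows a share of up to 1.75% each (exact interval), and each list was nearest to at most 0.181% of positions.

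**Figure D5:**
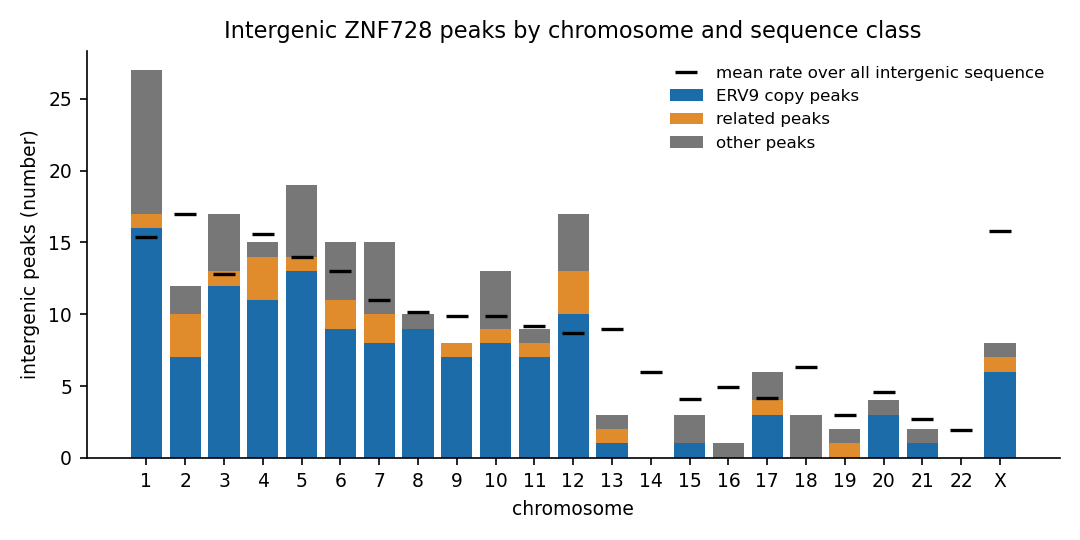
Number of intergenic ZNF728 peaks on each chromosome, stacked by sequence class; black marks give the number at the mean rate of 2.01 peaks per 10 Mb of intergenic sequence. Chromosomes 1 (27 peaks) and 12 (17) stand above their marks, and chromosomes 13, 14, 16, 18 and X are among those below.

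Intergenic peaks were found on 21 of the 23 chromosomes. Per 10 Mb of intergenic sequence the rate was 3.93 on chromosome 12 and 3.53 on chromosome 1, against 2.01 over all. On chromosomes 14 and 22, 0 of 11 and 0 of 10 peaks were intergenic (exact upper limits 28.5 and 30.8%), and neither had an intergenic ERV9 copy. Chromosome X had 8 peaks where the mean rate would give 15.8, and 6 of its 6 intergenic ERV9 copies had a peak. Chromosome 13 had 3 peaks where the mean rate would give 9.0, with 1 of its 3 intergenic copies bound.

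The limit of 1000 bp to a transcript start had few peaks near it. The members closest to it lay 1150 bp (IRF2BP2), 1349 bp and 1396 bp from a start, with scores of 257, 91 and 190. The closest peaks left out for lying near a start, while outside gene bodies, were at 558 bp (MAGI3), 420 bp (PRORSD1P) and 383 bp (DUSP10), with scores of 371, 293 and 214.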

How the data were processed

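Per the labels and the methods of the study, read pairs were aligned by the authors to hg19 (Bowtie2). They removed reads with a mapping quality under 10, blacklisted regions and regions of high input signal, and called peaks against the input with MACS2. Tool versions and the calling threshold are not given in the sources used here. The deposited BED list gives a position and a score for each peak, and the statistic behind this score is not stated. The list holds no read counts, so the depth behind a peak is unknown, and the methods state only an approximate depth per library.

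Peaks were placed against GENCODE 44 on GRCh37 (63827 genes, 20098 protein-coding). Distances run from the peak centre to the nearest base of a coding gene body. Intergenic background positions were taken every 1 kb outside runs of N. ERV9 copies were blastn 2.17.0 alignments (expectation value 1e-05) to the 847 bp primer product, of at least 80% identity over at least 50% of it, joined within 500 bp on the same strand. A peak was on a copy when over 50% of its length lay inside. The study designed these primers under ZNF728 peaks. The product is longer than the target area it states and need not be the fragment it cloned, and the copies are not an annotated subfamily. No repeat annotation was used here.

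Shares have exact (Clopper-Pearson) 95% intervals and medians order-statistic 95% intervals, which cover counting error only. Named peaks were the 12 highest scores, the 10 farthest from and 10 nearest to a coding gene, the 3 lowest scores, the widest, gaps with at least 3 peaks, peaks by listed gene families, peaks beside the 1000 bp limit, neighbours within 20 kb and peaks at least 97% identical over 200 bp. Peaks named for core changes, CpG density or repeat content were added after their values were seen, as were the bins of distance. The members, lists and the ERV9 segment were chosen with earlier results of these data known. The site scan and the distance functions were tested on simulated data. Scripts ran in Python 3.11.15 with pandas 2.3.3, matplotlib 3.10.9, scipy 1.17.1, numpy 2.4.6 and pysam 0.24.0, beside samtools 1.23.1.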

Additional observations from a re-analysis of the deposited data

How the results depend on the processing

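The values rest on 1 peak list, and no peak has a replicate. No paired analysis was possible because there was 1 IP and 1 input library. Of 37 alternatives, 16 stayed within the 95% interval of the reported value and 21 left it. The intergenic share (41.5%) became 56.5% with protein-coding genes only, 36.3% with a 5 kb window and 51.2% in the stricter list (scores at or above the median). The ERV9 share (63.2%) became 4.78% at 90% identity, 70.3% at 70% identity over 20% of the segment and 82.2% in the stricter list. The fall at 90% follows from the copies themselves, whose median identity was 87.2%. Outside ERV9 copies the median distance to a coding gene was 22.1 kb, the desert share 24.7%, the median score 257 and the median width 258 bp. The desert share was 28.2% for gaps of 1 Mb and 57.9% for 250 kb. The gene-dense share was 50.2% for 5 genes and 7.66% for 20. A neighbouring intergenic peak was found for 1.91% within 100 kb and 12% within 500 kb, and a neighbour of any kind within 1 Mb for 35.4%. Sites with 0 mismatches lay in a peak for 100% of 4 sites with a core of 30 bp and for 84.9% in the stricter list. Median mismatches were 2 over 30 bp and 8 over 100 bp.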

Other observations

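The last 8 letters of the core, AACCAGCT, were found on either strand in 7 of the 54 intergenic peaks without a central ERV9 alignment, and in 0.935% of intergenic windows of 244 bp, the median width of these peaks. These were the peaks near CDC42BPA (score 1757), NR2F1 (820), GPBP1 (509), MANEA (380), MYOCD (122), AMY1C (100) and PRMT6 (91). The last 4 belong to the group of 8 similar peaks in highly repeated sequence, so they are not separate occurrences. In the order given the 7 peaks were 428, 339, 319, 295, 236, 208 and 218 bp wide. A wider peak has more room for a match, and windows of 244 bp do not allow for this. In genes and at promoters 10 of the 175 peaks without a central ERV9 alignment held the same letters. The first 8 letters, TGGTTTGC, were in 0 of the 54 and 0 of the 175, against 0.996% of the windows. At so low a share, counts of 0 do not set this piece apart. Pieces between the ends were in 0 (GGTTTGCC, positions 2 to 9) to 3 (GGAACCAG, positions 11 to 18) of the 54. This comparison was chosen after the printed sequences were seen, 13 pieces of the core were counted in the same way, and a match of letters is a description, not a binding site.

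The ERV9 and related elements under intergenic peaks were on the strand of the nearest coding gene in 84 of 155 cases (54.2%, exact 95% interval 46.0 to 62.2%). The nearest gene of any type was protein-coding for 72 of the 209 peaks, a long non-coding RNA gene for 56 and a processed pseudogene for 54. Shares of these gene types over intergenic positions were not computed, so the counts have no background.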
